A study of Homo sapiens with 6 samples.

Results

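Decorin (DCN) and 9 other proteoglycan core protein genes (LUM, BGN, SDC1, SDC2, SDC4, GPC1, HSPG2, AGRN and SRGN) are described here, 10 of the 23459 genes in the deposited table. Each was found by its Entrez identifier. DCN was chosen by its rise after depletion of YAP and TAZ, and the other genes were put beside it by family with the results of that contrast known, so the values of all 10 are a description and carry no test. The cells were MCF10A, an untransformed human mammary epithelial line grown in medium with horse serum, insulin, hydrocortisone, cholera toxin and EGF, and every library's description marks the cells as WT. They received 20 nM of control siRNA (siCtrl, the controls) or of siRNA that targets YAP and TAZ (siYAP/TAZ, depletion), and each group has 3 libraries sequenced from the 3′ ends of mRNA. The time between transfection and harvest is not given in the sources used here.

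A proteoglycan is a core protein that carries glycosaminoglycan chains. Heparan and chondroitin/dermatan sulphate chains start with xylose on a serine, grow in the Golgi, and are sulphated there. Decorin, lumican and biglycan are small leucine-rich proteoglycans of the connective tissue matrix and bind collagen fibrils. Syndecans span the plasma membrane and glypicans are anchored to it by lipid, and both act as co-receptors for growth factors. Perlecan (HSPG2) and agrin (AGRN) are large heparan sulphate proteoglycans of basement membranes. Serglycin (SRGN) sits in secretory granules, mostly of blood cells. Epithelial cells are known for syndecans, perlecan and agrin, whereas decorin and lumican are known for fibroblasts.

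Library totals ranged from 3175149 to 4317286 counts, and the limit that a count of 0 leaves is 3 counts, or 0.695 to 0.945 CPM (the count divided by the library total and multiplied by 1e+06) depending on the library, a limit for counting error alone. All other CPM given here use library totals scaled by the trimmed mean of M-values (TMM), so they differ slightly from the scale of this limit. For siCtrl replicate 2 and siYAP/TAZ replicate 2, titles and genotype entries name the opposite group to the description used here. YAP1 was at 189, 204 and 210 CPM in the controls and 116.5, 118 and 112 CPM after depletion, and WWTR1 (TAZ) at 109, 109 and 102 against 70.5, 67.1 and 59.8 CPM, so both targeted genes went with the descriptions. Grouped by title, DCN lost its separation, with a log2 fold change of 1.64 in place of 3.15. All 10 markers of mammary basal epithelium were tested, with a summed level of 2281 to 2732 CPM in the controls and 1884 to 2055 CPM after depletion. With edgeR 0 of these 10 passed, while KRT5 (log2 fold change -0.47) and LAMB3 (-0.60) passed with DESeq2 (adjusted p of 0.0376 and 0.0268) and, with the replicate number as a block, KRT5 (0.0230), LAMB3 (0.00962), EPCAM (-0.49, 0.0364) and TP63 (0.58, 0.0379) did. Of 12 fibroblast markers, 6 were at or under 3 counts in every library, COL1A2, COL3A1, THY1 and TCF21 at 0, and their sum was 199 to 246 CPM in the controls and 199 to 227 CPM after depletion, of which PDGFRA gave 154 to 183 CPM. FAP, a fibroblast protease on that list, had 19.2, 18.5 and 55.8 CPM in the controls and 5.44, 3.31 and 13.1 CPM after depletion, and the groups did not overlap. Its log2 fold change was -2.09 (SE 0.55), with an adjusted p of 0.0875 by edgeR, 0.00131 by DESeq2 and 0.000543 with the block. TWIST1, on the same list, had 15.8, 52.2 and 19.6 CPM in the controls and 34.2, 34.4 and 45.7 CPM after depletion. The log2 fold change of TWIST1 was 0.40 (SE 0.39, adjusted p of 0.646 by edgeR and 0.748 by DESeq2). TWIST1 passed by edgeR without siCtrl replicate 2 (0.00866) and without both libraries with conflicting labels (0.0117), as FAP did (0.0137 and 0.0288). Of the 3 tested fibroblast markers, 2 had a positive and 1 a negative log2 fold change. The part of fibroblast-like cells in the DCN value was not tested. Bulk libraries cannot tell a change in the number of cells that express a gene from a change in RNA per cell.

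DCN was the member that differed most. It had 19, 24 and 22 counts in the siCtrl libraries and 314, 103 and 210 counts in the siYAP/TAZ libraries of replicates 1, 2 and 3. As TMM-scaled CPM these were 5.46, 7.41 and 5.53 against 71.2, 34.0 and 57.1. Every siYAP/TAZ library lay above every siCtrl library, and the spread was small in siCtrl and wide in siYAP/TAZ, where replicate 2 was lowest. The means were 6.13 ± 1.11 and 54.1 ± 18.7 CPM (SD, n = 3), a ratio of 8.83, and the fitted log2 fold change was 3.15 (SE 0.30). It was the 8th highest of the 12510 genes tested. With 1 library left out it ran from 2.90 (without siYAP/TAZ replicate 1) to 3.39 (without siYAP/TAZ replicate 2). The DCN gene (Entrez 1634; GRCh37, chromosome 12, 91534261 to 91576994, minus strand) shares no exon with another annotated gene.

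**Figure D1:**
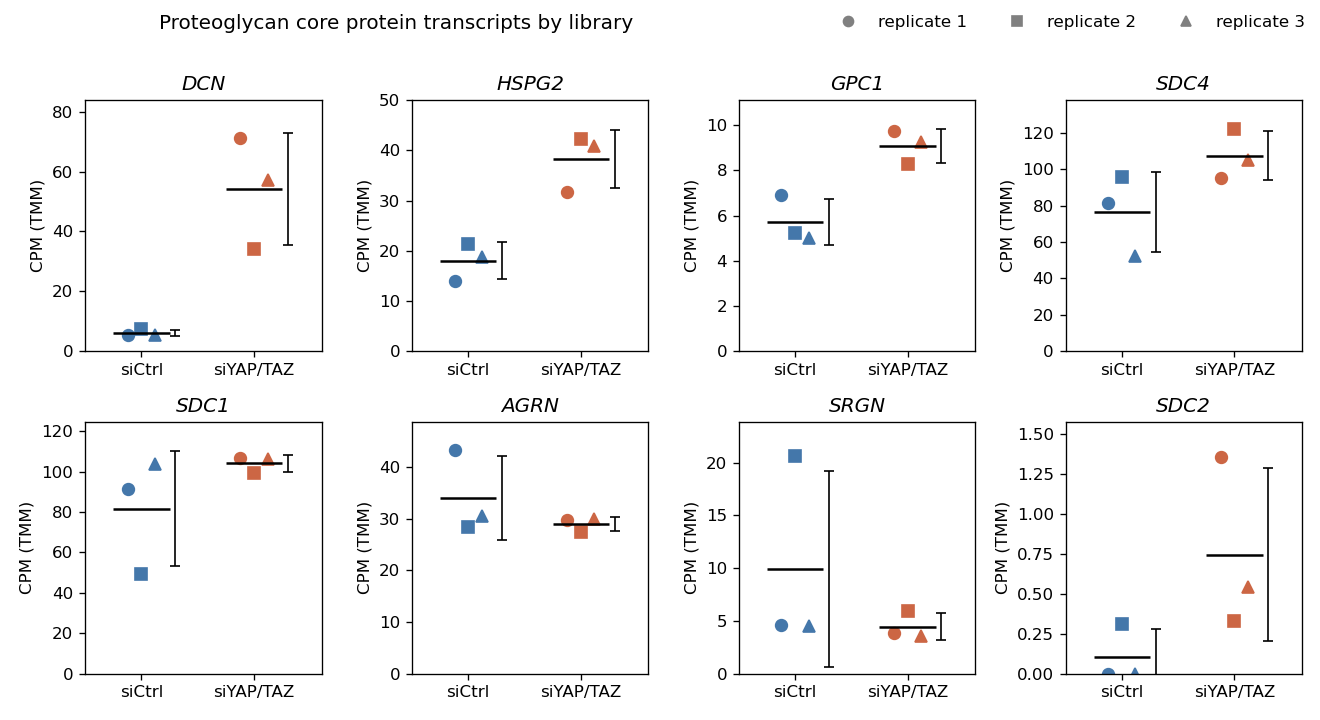
TMM-scaled CPM (y axis, linear from 0) of 8 core protein genes in each library, with siCtrl in blue and siYAP/TAZ in orange. Symbols give the replicate number, horizontal lines the group means and vertical bars 1 SD (n = 3, cut at 0 for SDC2). The siYAP/TAZ libraries sit above every siCtrl library for DCN, HSPG2 and GPC1, and siCtrl replicate 2 stands apart for SRGN at 20.7 CPM and for SDC1 at 49.4 CPM.

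The other small leucine-rich members were not detected beyond the floor. LUM had 0, 1 and 1 counts in the controls and 0, 0 and 1 after depletion. BGN had 0 counts in all 6 libraries. LUM lies next to DCN on chromosome 12 (91496406 to 91505271), followed by KERA and EPYC, which are of the same family, and then by CCER1. KERA and CCER1 had 0 counts throughout and EPYC had 1 count in siCtrl replicate 2 alone. The difference in DCN was therefore not accompanied by a detectable signal from its family neighbours at this depth. On its other side the nearest protein-coding gene is BTG1, an antiproliferative gene at 92534054 to 92539622 on the minus strand. BTG1 had 101, 297 and 115 CPM in the controls and 337, 334 and 469 CPM after depletion, a log2 fold change of 1.16 (SE 0.37) that did not pass (adjusted p = 0.147 by edgeR's quasi-likelihood test). It passed with the replicate number as a block (0.0160), without the low-count filter (0.0403), without siCtrl replicate 2 (0.000580) and without both libraries with conflicting labels (0.000553), and siCtrl replicate 2 was the highest control. BTG1 did not pass with DESeq2 (adjusted p = 0.2465), nor by edgeR with RLE scaling (0.147) or groups by title (0.898). With any other single library left out it did not pass either (0.186 to 0.450). LINC01619 overlaps BTG1 on the same strand.

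HSPG2, which encodes perlecan (Entrez 3339; GRCh37, chromosome 1, 22148737 to 22263803, minus strand), stood at 14.1, 21.3 and 18.8 CPM in the controls and 31.7, 42.3 and 40.8 CPM after depletion. The groups did not overlap, and the lowest siYAP/TAZ library was replicate 1. The means were 18.1 ± 3.67 and 38.3 ± 5.72 CPM, with a ratio of 2.12 and a log2 fold change of 1.08 (SE 0.21). The 3′ end of HSPG2 overlaps exons of LDLRAD2 on the opposite strand, and whether strand was used in counting is not given in the sources used here. LDLRAD2 had 22, 23 and 35 counts in the controls and 48, 60 and 81 after depletion beside 49, 69 and 75 and 140, 128 and 150 for HSPG2. Without strand the reads of the pair cannot be told apart, so the value of HSPG2 is uncertain to that extent. The log2 fold change of LDLRAD2 was 1.23 (SE 0.31), with an adjusted p of 0.0833 by edgeR, 0.0310 by DESeq2 and 0.0125 with the block.

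YAP and TAZ reach DNA through TEAD factors, so promoters of members were searched on both strands for the TEAD motif GGAATG, for the AP-1 motif TGACTCA and for the GC box GGGCGG. RefSeq promoters (GRCh38.p14), taken as the 250 bases before the start, were at hand for BGN, SDC1, SDC4, GPC1 and HSPG2, and DCN, LUM, AGRN and SRGN had no entry. SDC2 was not searched. The TEAD motif was in 0 of the promoters of these 5 genes, beside 11.9% of all 35116 promoters, and the AP-1 motif likewise in 0, beside 4.2%. A GC box was in each, beside 42.6% of all promoters. HSPG2 and SDC4 had 8 copies each and 0.584% of all promoters held as many. Both are shown because they carry the most copies and lie at members with positive fold changes, with the GC boxes in capitals, on the minus strand at chr1:21937311-21937560 (HSPG2) and chr20:45348425-45348674 (SDC4).
HSPG2: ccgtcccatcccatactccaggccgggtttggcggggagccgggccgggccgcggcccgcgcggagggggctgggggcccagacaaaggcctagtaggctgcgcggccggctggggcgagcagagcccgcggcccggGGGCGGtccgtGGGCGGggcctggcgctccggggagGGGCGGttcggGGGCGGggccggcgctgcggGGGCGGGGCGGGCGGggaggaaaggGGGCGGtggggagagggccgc
SDC4: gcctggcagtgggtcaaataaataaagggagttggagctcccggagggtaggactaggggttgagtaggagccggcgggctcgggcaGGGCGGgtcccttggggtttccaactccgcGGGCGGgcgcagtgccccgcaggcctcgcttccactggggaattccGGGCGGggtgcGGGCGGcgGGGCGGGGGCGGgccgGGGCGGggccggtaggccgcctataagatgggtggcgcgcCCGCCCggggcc
The matches are letters in a window and say nothing of a factor being bound there.

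AGRN, the gene of the other basement membrane member, had 43.4, 28.4 and 30.4 CPM in the controls and 29.7, 27.4 and 29.9 CPM after depletion. The groups overlapped, with siCtrl replicate 1 above the rest. The log2 fold change was -0.23 (SE 0.20), and -0.018 without siCtrl replicate 1. Perlecan and agrin transcripts thus stood at 18.1 ± 3.67 and 34.1 ± 8.13 CPM in the controls and at 38.3 ± 5.72 and 29.0 ± 1.37 CPM after depletion (SD, n = 3). Their order was the opposite in every siYAP/TAZ library to that in every siCtrl library. In siYAP/TAZ replicate 1 that order rested on 140 counts for HSPG2 against 131 for AGRN. Without strand, HSPG2 may hold reads of LDLRAD2, which had 48 counts there. AGRN shares exons with ENSG00000242590, a long noncoding RNA on the same strand that is not in the table used here.

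Among the cell-surface members, SDC1 and SDC4 were the most abundant core protein transcripts in both groups. SDC1 had 91.6, 49.4 and 104 CPM in the controls and 107, 99.2 and 106 CPM after depletion. Without siCtrl replicate 2, which was the lowest, its log2 fold change went from 0.35 (SE 0.24) to 0.094. SDC4, a syndecan of focal adhesions, had 81.3, 95.97 and 52.5 CPM in the controls and 95.2, 122 and 105 CPM after depletion. The groups overlapped through siCtrl replicate 2, and the log2 fold change was 0.49 (SE 0.21), with 0.69 when that library was left out and 0.27 without siCtrl replicate 3.

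The pair of syndecans varied against each other among the controls. The ratio of SDC1 to SDC4 was 1.13, 0.514 and 1.98 in siCtrl replicates 1, 2 and 3 and 1.12, 0.813 and 1.01 in siYAP/TAZ. The siCtrl range thus enclosed all 3 siYAP/TAZ values. SDC2 had 0, 1 and 0 counts in the controls and 6, 1 and 2 after depletion. Only siYAP/TAZ replicate 1 was above 3 counts, so no difference was readable at this depth.

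GPC1, the glypican of the set, was among the less abundant members. It had 6.89, 5.25 and 5.03 CPM in the controls and 9.75, 8.26 and 9.25 CPM after depletion. The groups did not overlap, the means were 5.72 ± 1.02 and 9.09 ± 0.754 CPM, and the log2 fold change was 0.67 (SE 0.27). Its counts were 24, 17 and 20 against 43, 25 and 34, few enough for counting error to weigh on each value.

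SRGN rested on 1 library. It had 16, 67 and 18 counts in the controls and 17, 18 and 13 after depletion, or 4.60, 20.7 and 4.52 against 3.85, 5.95 and 3.54 CPM. The siCtrl replicate 2 library stood far above the other 5. The log2 fold change of -1.15 (SE 0.60) went to -0.056 without it. Of the blood cell markers, PTPRC (10 counts, beside 2 to 8 elsewhere), CD14 (23, beside 9 to 19) and CD68 (6, beside 3 to 4) had their highest count in that library. TYROBP and HBB were at 0 in all 6 libraries and CD3E in 5 of 6, with 1 count in siYAP/TAZ replicate 1. CSF1R, also on that marker list, had 203, 257 and 220 CPM in the controls and 240, 280 and 290 CPM after depletion. Its highest value was thus in siYAP/TAZ replicate 3. The list of 10 blood and endothelial markers, 4 of them at or under 3 counts in every library, summed to 212, 273 and 228 CPM in the controls and 250 to 301 CPM after depletion. Most of each sum was CSF1R. Among the controls, siCtrl replicate 2 was the highest for CSF1R and for the sum. PECAM1, an endothelial marker of the list, had 6, 4 and 4 counts in the controls and 14, 29 and 18 after depletion (log2 fold change 2.10, SE 0.53), with an adjusted p of 0.0785 by edgeR, 0.0397 by DESeq2 and 0.0245 with the block. The part of blood cells in the SRGN value was not tested.

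**Figure D2:**
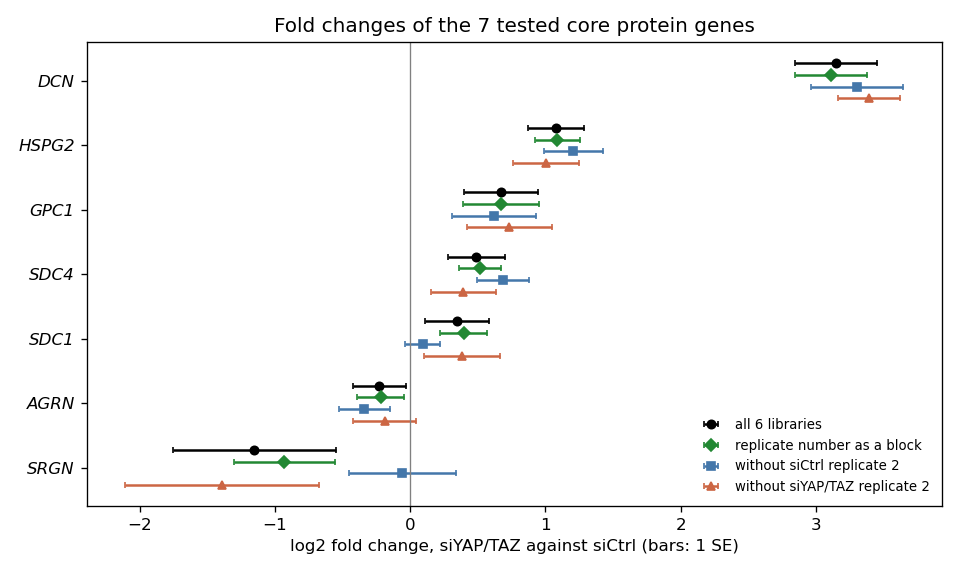
Fitted log2 fold change (x axis, siYAP/TAZ against siCtrl) of the 7 core protein genes that passed the low-count filter, with bars of 1 SE. Symbols show the fit to all 6 libraries, the fit with the replicate number as a block and the fits without replicate 2 of either group. DCN runs from 3.11 to 3.39 and HSPG2 from 1.01 to 1.21 in the fits shown, while SRGN moves from -1.15 to -0.056 without siCtrl replicate 2.

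In all, 7 members passed the low-count filter and LUM, BGN and SDC2 did not. In the fit across all genes DCN and HSPG2 were called higher at an adjusted p under 0.05 and 0 members lower. Over all 12510 genes tested, 1.96% were called in either direction, 0.743% higher and 1.22% lower. The groups did not overlap for DCN, HSPG2 and GPC1, 3 of the 7, where 22.1% of all genes tested did not overlap. Since the members were chosen on this contrast, nothing is read from these counts. DCN was also called with the replicate block, with DESeq2 and with any 1 library left out. HSPG2 was not called when control replicate 1 or 3 was left out (log2 fold change 0.93 and 1.11), nor when depletion replicate 2 or 3 was (1.01 and 1.03). SDC4 was called without siCtrl replicate 2.

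Summed as a pool, transcripts of the 10 core protein genes were more abundant after depletion and their make-up differed. Because each transcript gives reads from its 3′ end only, CPM was compared between genes without dividing by length, and genes can still differ in how well their 3′ end is captured. The 10 genes summed to 247, 229 and 221 CPM in the controls and 350, 339 and 352 CPM after depletion. Their means were 232 ± 13.5 and 347 ± 6.85 CPM (SD, n = 3), a ratio of 1.49. Without DCN the sums were 226 ± 13.8 and 293 ± 13.6 CPM (SD, n = 3). Sums of all libraries of a group lay apart from those of the other group with DCN and without it. All 10 genes were put together with this contrast known, and leaving out DCN does not undo that choice. The sums are therefore a description only.

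The level order in siCtrl was SDC1 (81.6 ± 28.6 CPM), SDC4 (76.6 ± 22.1), AGRN (34.1 ± 8.13), HSPG2 (18.1 ± 3.67), SRGN (9.93 ± 9.30), DCN (6.13 ± 1.11) and GPC1 (5.72 ± 1.02). The neighbours SDC1 and SDC4 did not differ beyond their spread, nor did HSPG2 and SRGN, or SRGN, DCN and GPC1. In siYAP/TAZ it was SDC4 (107 ± 13.6), SDC1 (104 ± 4.27), DCN (54.1 ± 18.7), HSPG2 (38.3 ± 5.72), AGRN (29.0 ± 1.37), GPC1 (9.09 ± 0.754) and SRGN (4.45 ± 1.31), where SDC4 and SDC1, and DCN and HSPG2, did not differ beyond their spread. DCN stood 6th, 6th and 5th among the 10 in siCtrl and 3rd, 4th and 3rd in siYAP/TAZ. As a share of the pool it was 2.21% to 3.23% in siCtrl and 10.03% to 20.4% in siYAP/TAZ. The share of AGRN was 12.4% to 17.5% in siCtrl and 8.08% to 8.49% in siYAP/TAZ, and that of HSPG2 5.69% to 9.30% and 9.07% to 12.5%. The syndecans SDC1 and SDC4 were on average 35.2% and 32.9% of the pool in siCtrl and 29.96% and 30.98% in siYAP/TAZ.

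**Figure D3:**
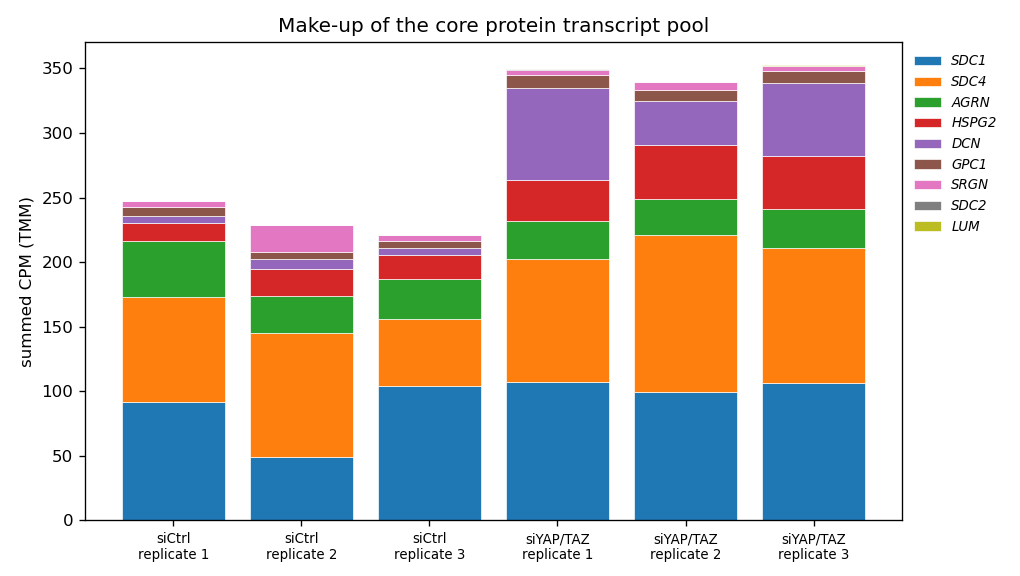
Summed CPM of the core protein genes in each library (y axis from 0), stacked by gene. The bars reach 221 to 247 CPM in the controls and 339 to 352 CPM after depletion, and the DCN segment is 2.21% to 3.23% of a siCtrl bar and 10.03% to 20.4% of a siYAP/TAZ bar. BGN had no counts and is not drawn.

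Genes with a pattern like that of a member were named by Pearson's r of log2 CPM over the 6 libraries, with the other members left out. These 6 points fall into the groups compared and share library depth, so r describes likeness here and has no test. For DCN the 5 genes were EMILIN3 (r of 0.998), an elastin-interface matrix protein, CYP4V2 (0.994), a fatty acid hydroxylase, LYPD3 (0.992), a surface protein of squamous epithelium, MAOB (0.991), monoamine oxidase B, and PIK3R2 (0.987), a regulatory subunit of PI3 kinase. Like DCN they had siYAP/TAZ replicate 2 as the lowest of its group, at 34.0 CPM for DCN, 12.6 for EMILIN3, 12.9 for CYP4V2, 10.2 for LYPD3, 4.297 for MAOB and 66.1 for PIK3R2. Their log2 fold changes were smaller, from 0.56 for CYP4V2 to 2.73 for MAOB. EMILIN3 shares exon sequence with LPIN3 on the opposite strand, so its reads are uncertain. For HSPG2 the 3 nearest were MAP2K6, BCAS3 and TBC1D17 (r of 0.993 to 0.995), and for SRGN they were ATXN2, IRX2 and GOLGA4 (0.988 to 0.992), all with their highest value in siCtrl replicate 2.

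The rest of the pathway was followed in 11 lists with 150 genes, of which 112 were tested. Of these 112, 1 was called higher and 1 lower, which is 1.79% beside the 1.96% of all genes. With the replicate block, 13 of 112 were called (11.6%) beside 10.1% of all genes. With DESeq2, 9 of 146 were called (6.16%) beside 3.06% of all genes, and edgeR without the low-count filter called 7 of 146 (4.79%) beside 2.90%. The DESeq2 denominators, 146 and 19181, include low-count genes left without an adjusted p, which could not be called. Both DESeq2 shares are thus lower than they would be among genes with an adjusted p, and their contrast is uncertain to that extent.

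The gene called lower was VCAN, which encodes versican, a large chondroitin sulphate proteoglycan of the provisional matrix. It had 199, 254 and 287 CPM in the controls and 91.8, 98.5 and 120 CPM after depletion. All siYAP/TAZ libraries were below all siCtrl libraries, and VCAN fell from 247 ± 44.5 to 103 ± 14.5 CPM (SD, n = 3), with -1.26 on the log2 scale (SE 0.17, adjusted p = 0.0107 by edgeR's quasi-likelihood test). Its adjusted p was 0.0703 with control replicate 3 left out, and 0.0506 and 0.0628 with depletion replicate 2 or 3 left out, and over all alternatives it ran from 7.41e-08 to 0.912, the last by title. VCAN alone had a higher level in siCtrl than the 10 core protein genes together in 2 of 3 libraries. VCAN-AS1 overlaps its exons on the opposite strand and is not in the table used here. Among the other 4 tested matrix proteoglycans (SMOC1, PRG4, TINAGL1 and SPOCK1), 0 were called by edgeR or DESeq2 and 0 had an unadjusted p under 0.05.

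The gene called higher was LRP1, an endocytic receptor with decorin among its ligands. It had 4.31, 6.48 and 4.52 CPM in the controls and 12.5, 25.5 and 25.02 CPM after depletion, and rose from 5.104 ± 1.20 to 20.98 ± 7.38 CPM (SD, n = 3). The log2 fold change was 2.03 (SE 0.34), with an adjusted p of 0.0221 by edgeR. The adjusted p was 0.0780 and 0.135 with control replicate 1 or 3 left out and 0.0808 and 0.132 with depletion replicate 2 or 3 left out, and over all alternatives it ran from 5.18e-05 to 0.934, the last by title. LRP1 overlaps exons of STAT6 on the opposite strand, which had 211 to 261 counts in the controls and 249 to 423 in siYAP/TAZ. Of the 21 tested binding partners, 11 had a positive and 10 a negative log2 fold change, with a median of 0.036. With the block 3 further partners passed: FGF2, a growth factor held by heparan sulphate (-0.77, adjusted p = 0.0132 with the block and 0.0567 without), ITGB1, the integrin β1 chain (-0.68, 0.00289 and 0.0560), and SDCBP, syntenin, which binds the tails of syndecans (0.73, 0.0162 and 0.199). FGF2 and ITGB1 also passed with DESeq2 (adjusted p of 0.0129 and 0.00504) and by edgeR without the low-count filter (0.0235 and 0.0236). They passed without siCtrl replicate 2 as well (0.0139 and 0.0132), but with no other single library left out. SDCBP did not pass with DESeq2 (0.0823) and passed without siCtrl replicate 2 (0.00130). FGF2 overlaps NUDT6 on the opposite strand.

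The list of other cell-surface proteoglycans held transcripts at higher levels than any member. GPC6, a glypican, had 283, 242 and 245 CPM in the controls and 416, 456 and 311 CPM after depletion, and TGFBR3 (betaglycan), a TGF-β co-receptor, had 24.7, 23.1 and 17.1 against 29.7, 50.6 and 38.6 CPM. The groups did not overlap for either gene. Their log2 fold changes were 0.62 (SE 0.17) and 0.87 (SE 0.24), and neither passed (adjusted p of 0.0924 and 0.0969 by edgeR) although both did with the block (0.0140 and 0.0270) and with DESeq2 (0.0277 and 0.0449). Of the 9 tested genes in this list, edgeR called 0, and 2 reached an unadjusted p under 0.05 in each direction. Over all 12510 genes tested, 1051 were higher and 1160 lower at that p. The 2 lower genes of the list were PTPRZ1, a receptor phosphatase with chondroitin sulphate chains, and NRP1, a semaphorin and VEGF co-receptor. PTPRZ1 had 17, 15 and 48 counts in the controls and 9, 10 and 4 after depletion, which did not overlap in CPM, and the fitted log2 value was -1.78 (SE 0.52; adjusted p = 0.117 by edgeR). It passed without siCtrl replicate 2 (0.0298) and without both libraries with conflicting labels (0.0271), as NRP1 (-0.51, SE 0.22, adjusted p = 0.277) did in the former (0.0241). CD44 and GPC3 had log2 fold changes of 0.024 (SE 0.16) and 0.16 (SE 0.14).

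The other small leucine-rich genes held 4 tested of 13, with 8 at or under 3 counts in every library. These 4, ECM2, OGN, OMD and ASPN, lie together on chromosome 9 inside CENPP on the opposite strand, and 0 were called by edgeR or DESeq2, with 0 at an unadjusted p under 0.05. ECM2 had 87, 39 and 86 counts in the controls and 119, 44 and 50 after depletion, beside 399, 181 and 402 and 463, 177 and 248 for CENPP. In both groups replicate 2 had the lowest counts of both genes, and it was also the library with the lowest total. As CPM, ECM2 was lowest after depletion in replicate 3, at 13.6 beside 14.5 in replicate 2. The overlap with CENPP is one of gene spans, and whether exons are shared was not tested. Reads from any shared part could not be told apart without strand, so the values of these genes are uncertain to that extent.

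The lists for the linker and UDP-sugars, chondroitin/dermatan sulphate, heparan sulphate and the sulphate donor held 51 genes with 46 tested. Their median log2 fold change was 0.032, beside -0.00093 over all genes tested, with a range from -0.63 to 1.19. Among the 46, edgeR called 0 and DESeq2 called 1. An unadjusted p under 0.05 was reached by 3 in the higher and 3 in the lower direction, beside 1051 and 1160 of 12510 over all genes tested. For 33 of 46 the 95% interval of the log2 fold change lay within -1 and 1, beside 8760 of 12510. A 2-fold change in either direction lay outside the interval for these 33, and in at least 1 direction inside it for the rest of the 46. NDST3, an N-deacetylase/N-sulphotransferase of heparan sulphate, was the gene called by DESeq2 (8.90, 4.63 and 6.28 CPM in the controls and 14.5, 11.9 and 19.0 after depletion, log2 fold change 1.19, SE 0.31, adjusted p = 0.0439, and 0.0851 by edgeR). With the block, NDST3 (0.0201) was called together with FAM20B, the xylose kinase of the linker (-0.59, 0.0179), and CHSY3, a chondroitin synthase (-0.63, 0.0307). EXT1, a heparan sulphate polymerase, had 255, 184 and 211 CPM in the controls and 277, 354 and 285 after depletion, which did not pass (0.49, SE 0.16, adjusted p = 0.161 by edgeR).

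**Figure D4:**
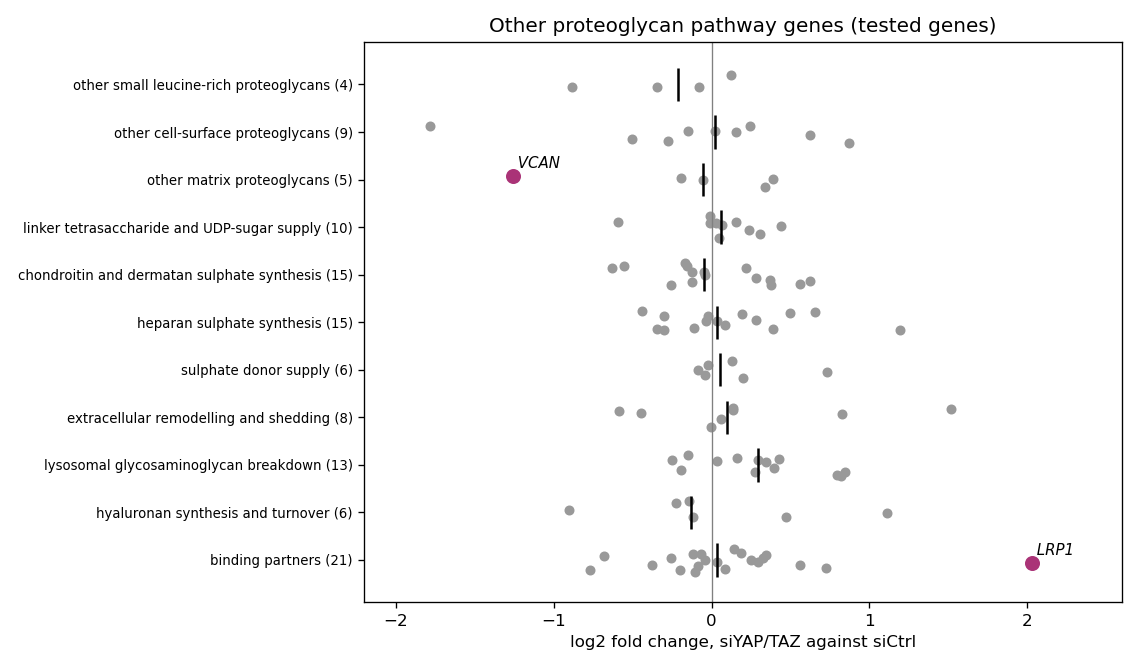
Log2 fold change (x axis, siYAP/TAZ against siCtrl) of the 112 tested genes in 11 lists around the core proteins, with the number tested per list in brackets and a vertical line at each list's median. Large coloured points passed an adjusted p of 0.05 in edgeR: VCAN at -1.26 and LRP1 at 2.03.

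Of the 8 tested genes that trim or shed proteoglycans outside the cell, 0 were called by edgeR or DESeq2. At an unadjusted p under 0.05, 2 were higher, beside 1051 of 12510 over all genes tested. SULF1, which removes 6-O-sulphates from heparan sulphate, had 6, 11 and 7 counts in the controls and 18, 32 and 20 after depletion and passed with the block (adjusted p = 0.0267). The 13 tested lysosomal breakdown genes had a median of 0.29, with 10 positive, beside 6240 of 12510 over all genes tested. Of these 0 were called by edgeR and 1 by DESeq2, and 4 of 13 were higher at an unadjusted p under 0.05, beside 1051 of 12510. In the hyaluronan list HMMR, a hyaluronan receptor that is also a spindle protein, had 124, 88.6 and 110 CPM in the controls and 76.6, 45.3 and 49.8 CPM after depletion, with an adjusted p of 0.0688 by edgeR, 0.00678 by DESeq2 and 0.00197 with the block. Of the 6 sulphate donor genes, 0 were called by edgeR or DESeq2 and 0 had an unadjusted p under 0.05. BTG1, the marker genes named and all genes named in these lists other than VCAN and LRP1 were chosen after their values were seen.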

How the data were processed

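RNA of 6 MCF10A samples was measured by 3′ mRNA-Seq. The authors deposited raw counts per Entrez gene with no normalisation, and the submitters' processing notes name cutadapt 4.2, Bowtie2 2.3.5.1 and hg19, while the gene annotation, the counting tool and its use of strand for these 3′ libraries are not given in the sources used here. Groups and replicate numbers were read from each sample's description, whose text matches its column. The study's methods speak of 3 biological replicates for RNA-Seq, and the labels do not say whether these libraries came from separate cultures, so p-values measure the spread between them.

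Symbols came from the RefSeq gene table (GRCh38.p14) for 23308 of 23459 IDs with 99.7% of the counts, and positions from GENCODE 44 lifted to GRCh37. Counts were fitted with edgeR 4.0.16 (R 4.3.3): default low-count filter, TMM scaling, quasi-likelihood F test by group and Benjamini-Hochberg adjustment over 12510 genes, with a threshold of 0.05. SEs were derived from the fold change and its F statistic. Members, lists and alternatives were chosen with earlier results of these data known. The genes to name were all members, genes overlapping them, the targeted genes, list genes past the threshold (up to 3 a direction), and by Pearson's r of log2 CPM the 5 genes nearest to DCN and the 3 nearest to HSPG2 and SRGN. The fit was tested on simulated counts.

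Deviations from the group means of libraries with the same replicate number correlated across genes, with r of 0.42, 0.35 and 0.13 for numbers 1, 2 and 3. As each exceeded 0.1, a fit with the replicate number as a block was run as an alternative. The reported fit was by group alone, so SEs and p-values not named as blocked leave this pairing out. Blocked values are given where they change a call. Alternatives were DESeq2 1.42.0, RLE scaling, no filter, the block, groups by title, leaving out both libraries with conflicting labels, and leaving out each library. The values of 1 list gene are not reported here.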

Additional observations from a re-analysis of the deposited data

How the results depend on the processing

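The log2 fold changes of the 7 tested members kept their direction under every alternative except grouping by title, where SDC1 went from 0.35 to -0.16 and SRGN from -1.15 to 0.87 on the log2 scale, neither of them called. Calls over all genes were 245 in the reported fit, 587 with DESeq2, 556 without the low-count filter, 1263 with the replicate block, 1183 without both libraries with conflicting labels and 0 by title (464 at an unadjusted p under 0.05), and ranged from 16 (without siCtrl replicate 3) to 1579 (without siCtrl replicate 2) with 1 library left out. Members called were 0 by title, and 1 to 3 with 1 library left out. The summed level ratio of 1.49 was 1.15 by title and 1.46 to 1.54 with 1 library left out. The cause was not tested.

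With DESeq2, 2 other cell-surface, 1 heparan sulphate, 1 lysosomal and 1 hyaluronan gene and 3 binding partners were called. Without the filter there were 1 cell-surface, 1 heparan sulphate, 1 hyaluronan and 3 partner genes. With the replicate block there were 2 cell-surface, 1 linker, 1 chondroitin, 1 heparan sulphate, 1 remodelling, 1 lysosomal, 1 hyaluronan and 4 partner genes. Without both conflicting libraries there were 1 cell-surface, 1 chondroitin, 1 heparan sulphate, 2 lysosomal, 1 hyaluronan and 4 partner genes. By title 0 matrix genes and 0 partners were called. With 1 library left out the counts ran from 0 to 3 for cell-surface, 0 to 1 for matrix, chondroitin, remodelling and hyaluronan, 0 to 2 for heparan sulphate and lysosomal, and 0 to 4 for partner genes, each upper value being reached without siCtrl replicate 2. The small leucine-rich and sulphate donor lists had 0 calls under all of these, and RLE scaling changed no count of a list.

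Depth limits the low members: BGN, LUM and SDC2 could not be compared, and GPC1 and SRGN rest on 13 to 67 counts per library.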
